A study of Mus musculus with 6 samples.

Results

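The interferon-inducible GTPases of the IRG (immunity-related GTPase) and GBP (guanylate-binding protein) families were followed through their transcripts in reprogramming mouse fibroblasts with altered Adar1. The family was taken as 10 gene symbols, Irgm1, Irgm2, Igtp, Iigp1, Tgtp1, Tgtp2, Ifi47, Gbp2, Gbp3 and Gbp7, each found on the row of the deposited tables whose gene names hold it. The 10 symbols sit on 8 rows among 23406 named gene rows, because Igtp shares a row with Irgm2 and Tgtp1 with Tgtp2. Ifi47 shares its row with the olfactory receptor gene Olfr56. All 8 rows were among the 12266 that reached 1 FPKM (fragments mapped to a gene, scaled by transcript length and by the size of the library) in at least 2 libraries and were tested.

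All 6 libraries came from mouse embryonic fibroblasts with OSKM, the reprogramming factors Oct4, Sox2, Klf4 and Myc, collected on reprogramming day 7. KO cells were Adar1 Fl/Fl with 4OHT (4-hydroxytamoxifen; n = 2) and WT cells were Adar1 Fl/Fl with vehicle (n = 2). MUT cells were Adar1 Fl/E861A with 4OHT (n = 1) and HET cells were Adar1 Fl/E861A with vehicle (n = 1). Fl marks a floxed allele, which Cre recombinase can cut, and E861A is a change in the editing domain of ADAR1, the enzyme that turns adenosine to inosine in double-stranded RNA. Every group therefore started with at least 1 floxed allele, and WT and HET are vehicle-treated floxed cells rather than cells without engineered alleles. The sources used here do not give the Cre driver, the deleted exons, or the clone or culture behind each library. No group received 4OHT without a floxed allele, so 4OHT itself and the loss of a floxed allele cannot be told apart. MUT and HET differ in 4OHT and, by design, in the remaining floxed allele, with 1 library each. Their difference is therefore given as a value and enters a test only in the comparison of the 4OHT effect between backgrounds and in the comparison of all 4OHT with all vehicle libraries.

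The labels give no sequencing depth. An estimate from the smallest FPKM increments, taking fragments of 200 bases, came to 15500000 to 22400000 fragments per library. Replicates correlated across genes at r = 0.995 in KO and 0.995 in WT, which is a description since genes are not independent. Adar itself was at 34.2 and 31.3 FPKM in the KO libraries and 19.6 and 19.5 FPKM in the WT libraries, and at 33.0 FPKM in MUT and 17.0 FPKM in HET. Its log2 difference of KO over WT was 0.72 (SE 0.10, limma adjusted p = 0.000125). A gene-level value that includes exons outside a deletion does not check the genotype labels.

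IRG and GBP proteins are large GTPases that cells make after exposure to interferons, and in mice they defend the cell interior against parasites and bacteria that live in vacuoles. The regulatory IRG proteins, called GMS proteins, sit on the membranes of the cell's own organelles and hold the effector IRG proteins, called GKS proteins, in an inactive state there. The effectors and the GBPs gather on the membranes of pathogen vacuoles and break them, a targeting step that needs the ATG8 conjugation machinery of autophagy. Interferon-gamma acts on such genes through the GAS motif. Type I interferons act through the ISRE motif, to which IRF proteins bind.

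Promoters of the members are shown because the members moved together and these motifs are the ones through which interferons are known to act. The sequences are from RefSeq on build GRCm38.p6, on the strand of the gene, 5′ to 3′. Each shows the matched letters in capitals with 20 bases on either side, from a window of 250 bases before to 50 bases after the annotated start. The ISRE core searched was GAAANNGAAA and the GAS motif was TTCNNNGAA, each on both strands. An ISRE core on the other strand reads as its reverse complement, as in the GBP genes.
Irgm1 (chr11:48871415-48871470, minus strand, 2 overlapping ISRE cores): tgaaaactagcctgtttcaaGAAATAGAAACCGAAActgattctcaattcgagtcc
Irgm2 (chr11:58214882-58214942, plus strand, GAS then ISRE core): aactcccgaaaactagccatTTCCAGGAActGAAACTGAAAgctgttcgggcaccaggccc
Igtp (chr11:58199491-58199551, plus strand, GAS then ISRE core): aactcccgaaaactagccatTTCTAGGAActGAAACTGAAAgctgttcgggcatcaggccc
Tgtp1 (chr11:48992294-48992354, minus strand, GAS then ISRE core): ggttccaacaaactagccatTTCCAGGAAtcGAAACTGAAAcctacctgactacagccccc
Tgtp2 (chr11:49064253-49064313, minus strand, GAS then ISRE core): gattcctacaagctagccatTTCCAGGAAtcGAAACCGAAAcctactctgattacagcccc
Gbp2 (chr3:142620584-142620633, plus strand, ISRE core): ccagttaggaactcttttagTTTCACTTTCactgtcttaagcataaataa
Gbp3 (chr3:142559979-142560034, plus strand, 2 overlapping ISRE cores): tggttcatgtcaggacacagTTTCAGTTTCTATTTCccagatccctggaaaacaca
Gbp7 (chr3:142530210-142530312, plus strand, 2 GAS matches then ISRE core): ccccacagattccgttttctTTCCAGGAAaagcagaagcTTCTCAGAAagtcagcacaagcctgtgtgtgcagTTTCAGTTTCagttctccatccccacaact

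A promoter window was found for 9 of the 10 members, with 2 windows for Gbp3. Of these 9, 8 held the ISRE core, in 8 of their 10 windows, against 3.44% of all 32851 windows of the same length. The members were chosen as interferon-inducible genes, so a high share follows from the choice and is no result of these libraries. The exception was Ifi47, whose window held neither motif. Both motifs stood in the windows of 5 members, Irgm2, Igtp, Tgtp1, Tgtp2 and Gbp7, against 0.454% of all windows. A GAS match, with or without an ISRE core, stood in the windows of the same 5 members and in 8.3% of all windows. In Irgm2, Igtp, Tgtp1 and Tgtp2 the GAS match began exactly 11 bases before the ISRE core, an arrangement noticed in these sequences and then counted. Only 5 of the 32851 windows, 0.0152%, had that spacing, those of the 4 members and of Gm12185, a predicted gene. The 4 member sequences also share letters directly before the GAS match, so they are not independent cases. Whether Gm12185 belongs to the same family was not checked. The ISRE core began 77 and 70 bases before the start of Tgtp1 and Tgtp2, 64 bases before that of Irgm2 and 34 bases before that of Igtp. A match is a run of letters and shows neither binding nor use, and no match says only that these letters are not in the window.

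**Figure D1:**
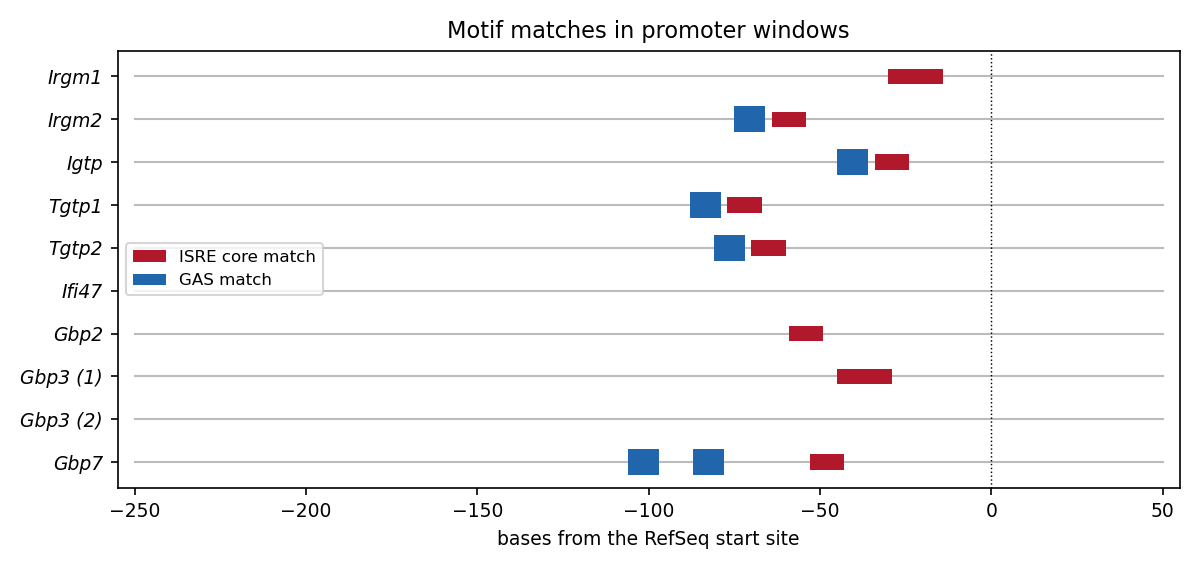
Motif matches in the promoter windows of 9 members, with the horizontal axis in bases from the RefSeq start site (dotted line at 0) and 1 grey line per window. Red bars mark ISRE cores and blue bars GAS matches; Irgm2, Igtp, Tgtp1 and Tgtp2 have the blue bar 11 bases before the red one, and Ifi47 and the second Gbp3 window have none.

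All 8 rows rose in KO over WT, by 1.80-fold for Iigp1 up to 6.75-fold for the Tgtp row in mean FPKM. The test was limma on log2(FPKM + 1), with Benjamini-Hochberg adjustment over all 12266 rows and calls at an adjusted p under 0.05. Of all tested rows, 29.5% were called higher in KO and 28.2% lower. A log2 difference of at least 1 was reached by 6 of the 8 rows, against 4.68% of all tested rows, and the members' median was 1.42 against 0.02 over all tested rows. The 8 rows stood between the 93.2 and the 99.9 percentile of all log2 differences. In MUT over HET, all 8 rows were at least 2-fold higher on the log2(FPKM + 1) scale, against 4.93% of all tested rows. The median there was 2.18, against 0.01 over all tested rows. In every row the lowest of the 3 libraries with 4OHT lay above the highest of the 3 with vehicle, against 30.6% of all tested rows. Libraries are mixtures of cells, so more cells of a type and more RNA per cell cannot be told apart.

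**Figure D2:**
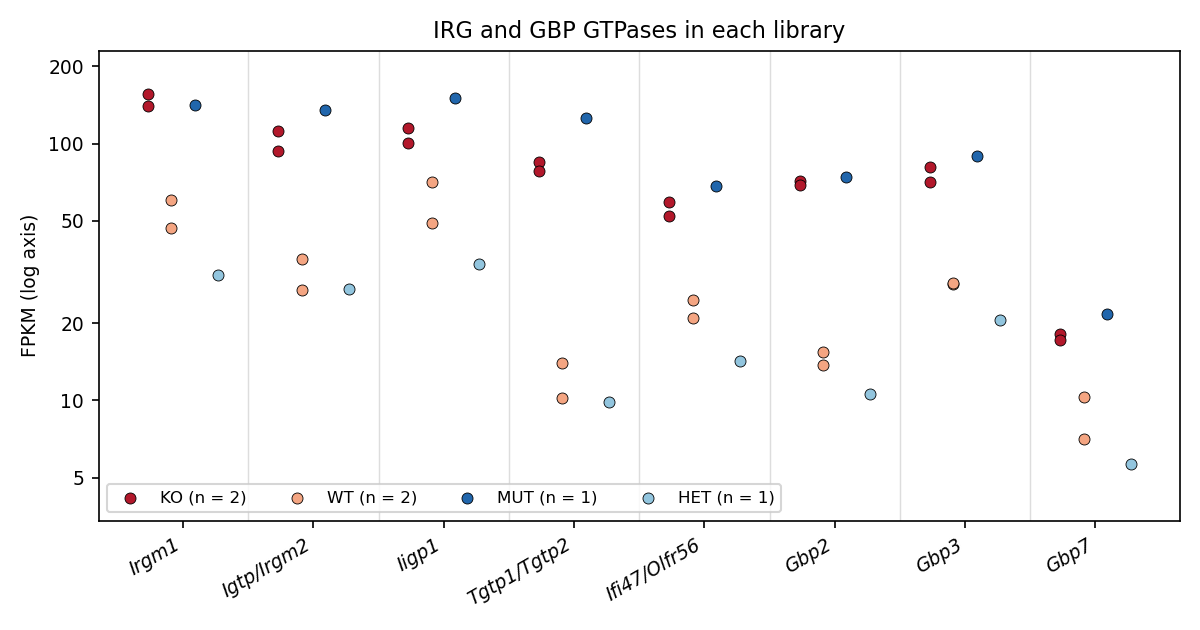
FPKM of the 8 rows (log axis) in each of the 6 libraries, as single points, with KO left of WT and MUT left of HET. In every row the KO and MUT points lie above the WT and HET points, from 18.2 and 17.2 FPKM in KO against 7.11 and 10.3 FPKM in WT for Gbp7 to 85.2 and 78.1 FPKM against 10.2 and 14.0 FPKM for the Tgtp row.

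The regulatory IRG genes are described first. Irgm1 (chr11:48865235-48875309 in the deposited table, GRCm38) encodes a regulator needed in mice for control of intracellular bacteria. It was at 155.6 and 139.6 FPKM in the KO libraries and 47.0 and 60.1 FPKM in the WT libraries. The means were 147.6 ± 11.3 FPKM in KO and 53.5 ± 9.30 FPKM in WT (SD, n = 2 each). The log2 difference of KO over WT was 1.45 (SE 0.12, limma adjusted p = 4.36e-06). MUT had 141.8 FPKM and HET 30.8 FPKM, a 4.61-fold ratio. Irgm1 was the 1 row in which MUT lay between the KO libraries rather than above both.

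The row of Igtp and Irgm2 (chr11:58199556-58222833) joins a pair of neighbouring regulators on the plus strand, both of which hold effector IRG proteins in check. Its values were 112.5 and 94.0 FPKM in KO and 26.8 and 35.6 FPKM in WT. The log2 difference of KO over WT was 1.70 (SE 0.14, limma adjusted p = 3.08e-06). MUT had 135 FPKM and HET 27.2 FPKM, so this was the row in which HET fell inside the WT range. The row value cannot be divided between the genes. Of the 50-base words in their transcripts, 11.8% of those of Igtp and 6.79% of those of Irgm2 were found in the other gene.

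The effector IRG genes included both the largest and the smallest rise. The row of Tgtp1 and Tgtp2, near-identical genes for an effector that loads early onto parasite vacuoles, was at 85.2 and 78.1 FPKM in KO and 10.2 and 14.0 FPKM in WT. The means were 81.6 ± 4.99 FPKM in KO and 12.1 ± 2.68 FPKM in WT (SD, n = 2 each). The rise was the largest among the members, with a log2 difference of 2.67 (SE 0.13, limma adjusted p = 1.02e-07). MUT had 126 FPKM and HET 9.89 FPKM, a 12.7-fold ratio that was also the largest of the family. Tgtp1 shares 79.4% of its 50-base words with Tgtp2 and Tgtp2 shares 89.8% with Tgtp1, so no share of the row was given to either gene.

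Iigp1, which encodes the effector Irga6 (chr18:60373626-60392662), was at 114.8 and 100.6 FPKM in KO and 49.0 and 70.9 FPKM in WT. The means were 107.7 ± 10.04 FPKM in KO and 60.0 ± 15.5 FPKM in WT (SD, n = 2 each). The log2 difference of 0.86 (SE 0.15, limma adjusted p = 0.000808) was the smallest of the 8. The WT libraries of Iigp1 were further apart than those of most members, with WT 2 at 1.45 times WT 1. With no filter on low values the limma adjusted p of Iigp1 was 0.0585. In MUT the gene stood at 150.1 FPKM, the highest value of any member there, and in HET at 34.0 FPKM.

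The row of Ifi47, which encodes the effector Irgd, was at 59.0 and 52.1 FPKM in KO and 21.01 and 24.7 FPKM in WT. Its log2 difference was 1.25 (SE 0.11, limma adjusted p = 6.14e-06), and MUT and HET had 68.7 and 14.3 FPKM. The deposited table gives this row and the Tgtp row the same interval, chr11:48985329-49135387, in which Tgtp1 and Tgtp2 lie on the minus strand and Ifi47 on the plus strand. Whether the authors' quantification used strand is not given in the sources used here. Ifi47 shares 2.54% of its 50-base words with Olfr56, the other gene of its row, and none with genes outside it.

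The GBP genes lie side by side on chromosome 3, and each rose. Gbp2 (chr3:142620663-142638008), a GBP that coats parasite vacuoles in mouse cells, was at 71.7 and 68.7 FPKM in KO and 13.7 and 15.4 FPKM in WT. The means were 70.2 ± 2.14 FPKM in KO and 14.6 ± 1.20 FPKM in WT (SD, n = 2 each). The log2 difference was 2.196 (SE 0.10, limma adjusted p = 5.83e-08), the second largest of the family, and MUT had 73.9 FPKM against 10.6 FPKM in HET.

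Gbp3 (chr3:142559791-142573212) was at 81.3 and 71.2 FPKM in KO and 28.5 and 28.6 FPKM in WT, and at 89.6 FPKM in MUT and 20.5 FPKM in HET. The log2 difference of KO over WT was 1.38 (SE 0.10, limma adjusted p = 1.40e-06). Gbp7 (chr3:142530336-142550151) was the lowest row of the family in all 6 libraries. It had 18.2 and 17.2 FPKM in KO and 7.11 and 10.3 FPKM in WT, and 21.7 FPKM in MUT and 5.66 FPKM in HET. Its log2 difference was 0.97 (SE 0.14, limma adjusted p = 0.000240). Of its 50-base words, 12.7% were shared with genes outside its row, mostly the predicted gene Gm43802, the largest such share in the family.

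Summed by role, the regulators reached 268 and 234 FPKM in KO and 73.8 and 95.7 FPKM in WT, with 277 FPKM in MUT and 58.0 FPKM in HET. The effectors summed to 259 and 231 FPKM in KO and 80.2 and 110 FPKM in WT, with 345 FPKM in MUT and 58.2 FPKM in HET. The GBPs summed to 171 and 157 FPKM in KO and 49.3 and 54.3 FPKM in WT, with 185 FPKM in MUT and 36.8 FPKM in HET. The effector sum over the regulator sum was 0.966 and 0.988 in KO and 1.09 and 1.15 in WT, and 1.24 in MUT against 1.004 in HET, so this ratio was lower in KO than in WT and higher in MUT than in HET. Irgm1 was the highest row in both KO libraries, and Iigp1 in both WT libraries, in MUT and in HET.

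Among Gbp2, Gbp3 and Gbp7 the balance shifted toward Gbp2. This does not extend to all GBP genes, since Gbp5, which is not a member, rose from a mean of 0.754 FPKM in WT to 6.89 FPKM in KO. The Gbp2 level over the Gbp7 level was 3.95 and 3.99 in KO and 1.93 and 1.498 in WT, and 3.41 in MUT against 1.87 in HET. The Gbp2 level over the Gbp3 level was 0.883 and 0.965 in KO and 0.481 and 0.538 in WT, and 0.824 in MUT against 0.515 in HET. Neither ratio overlapped between the libraries with 4OHT and those with vehicle. Among single rows, 30.6% of all tested rows had every library with 4OHT above every library with vehicle. The share of other row pairs whose ratio separates in this way was not computed.

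**Figure D3:**
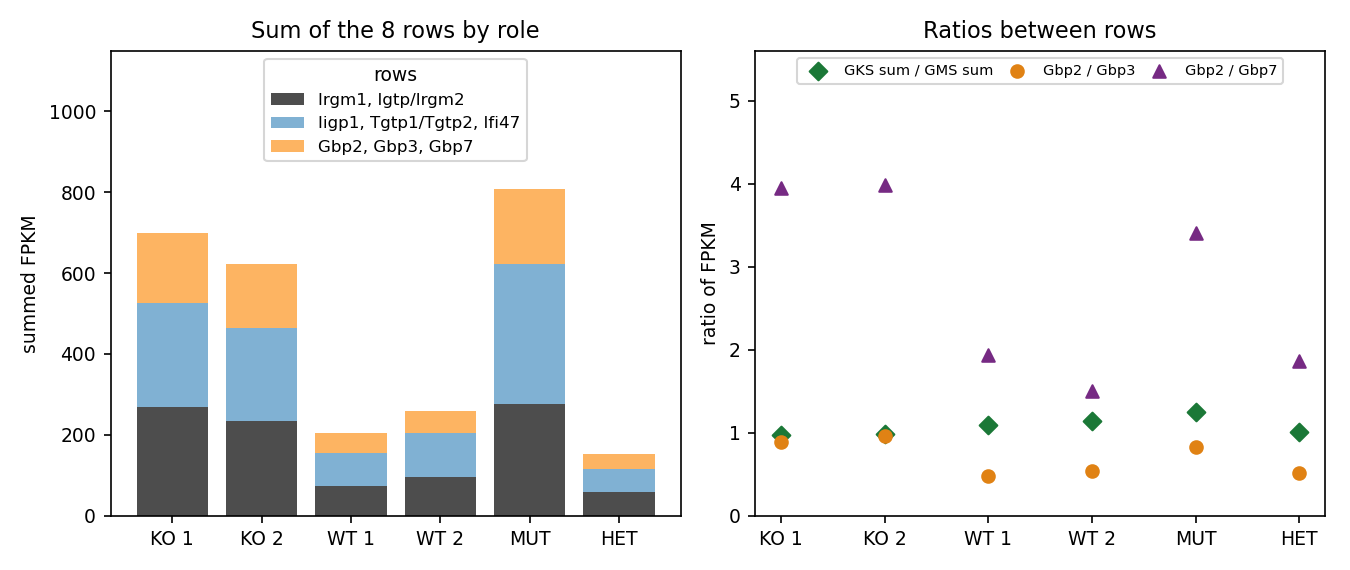
Left, summed FPKM of the regulators (Irgm1 and the Igtp and Irgm2 row), the effectors (Iigp1, the Tgtp row and the Ifi47 row) and the GBPs in each library, stacked. Right, ratios between rows in each library: the Gbp2 to Gbp7 ratio lay at 3.95, 3.99 and 3.41 in KO 1, KO 2 and MUT and at 1.93, 1.498 and 1.87 in WT 1, WT 2 and HET.

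The rise with 4OHT was then compared between the allele backgrounds. In all 8 rows the log2 difference of MUT over HET exceeded that of KO over WT, against 46.3% of all tested rows, and the KO effect minus the MUT effect had a median of -0.76, against 0.03 over all tested rows. Of the 8 rows, 2 passed the limma test of that difference, while 4.01% of all tested rows were called in either direction. Iigp1 differed most, with a log2 difference of 0.86 in KO over WT and 2.11 in MUT over HET, a gap of -1.25 (SE 0.27, limma adjusted p = 0.0295). Ifi47 had 1.25 in KO over WT and 2.19 in MUT over HET, a gap of -0.94 (SE 0.19, limma adjusted p = 0.0261). The other 6 rows had gaps of -0.50 for Gbp2 to -0.87 for the Tgtp row, with limma adjusted p of 0.0604 for Gbp3 to 0.254 for the row of Igtp and Irgm2. The spread comes from the WT and KO pairs, and MUT and HET, with 1 library each, are assumed to vary like them. Neither row was called with no filter on low values (limma adjusted p = 0.283 for Iigp1 and 0.205 for Ifi47), a setting under which 0 of all rows were called. Without WT 2 the gap shrank to -0.99 for Iigp1 and -0.83 for Ifi47. Without WT 1, KO 1 or KO 2 it was -1.52, -1.35 and -1.16 for Iigp1, and -1.05, -1.03 and -0.85 for Ifi47. Each of these fits leaves 1 library in a group, and without a KO library the spread comes from the WT pair alone. Rows called in them are therefore not counted.

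**Figure D4:**
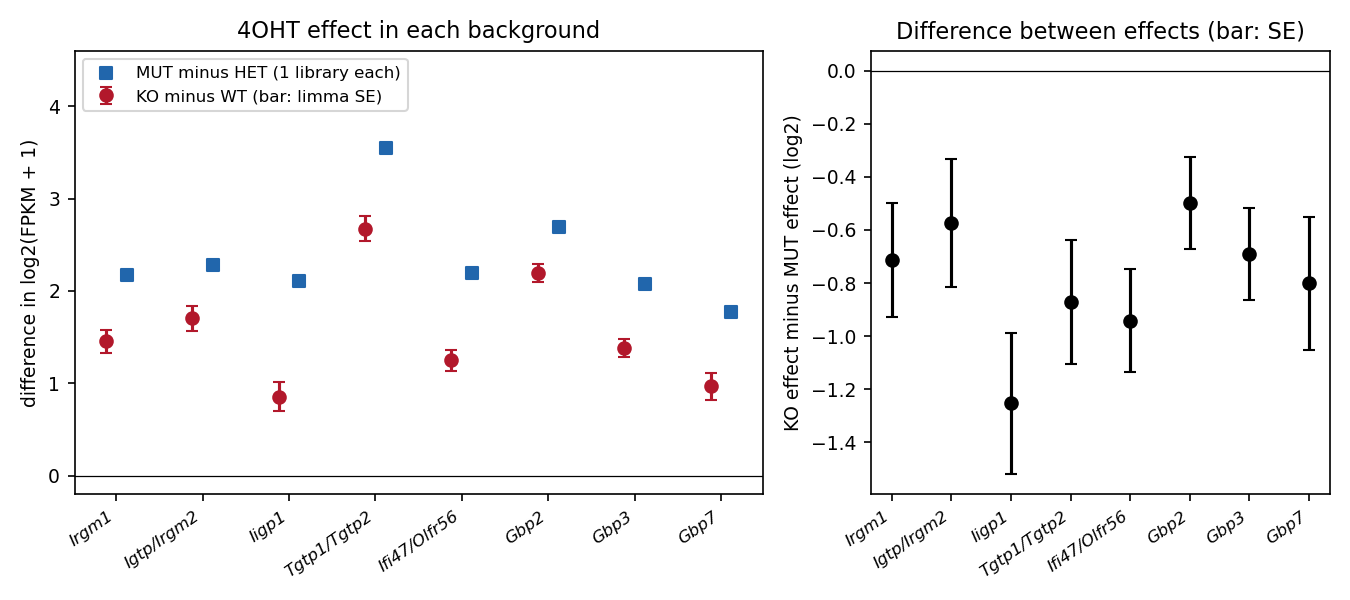
Left, log2 differences on the log2(FPKM + 1) scale for each row, with MUT minus HET as blue squares (1 library each, no error) and KO minus WT as red circles with limma's SE. Right, the KO effect minus the MUT effect with its SE; all 8 values lie below 0, between -1.25 for Iigp1 and -0.50 for Gbp2.

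HET and MUT were next set beside the Fl/Fl groups, with no test. HET lay below both WT libraries in 7 of the 8 rows, against 39.1% of all tested rows, with a median log2 difference of HET over WT of -0.49 against 0.01 over all tested rows. Iigp1 and Irgm1 were the lowest relative to WT, at -0.78 and -0.77. MUT lay above both KO libraries in 7 of the 8 rows, against 34.6% of all tested rows, and below both in 0 of 8, against 44.7%. The median log2 difference of MUT over KO was 0.29, against -0.04 over all tested rows, and the largest was 0.62 for the Tgtp row. For each row, the gap given above equals its HET over WT difference minus its MUT over KO difference, so the single HET library enters it. The members also moved together between replicates. WT 2 lay above WT 1 and KO 2 below KO 1 in all 8 rows, against 19.4% of all tested rows, so the 8 rows are not 8 independent observations of a library.

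With all 6 libraries and the allele background as a term, 4OHT over vehicle was called higher in 8 of 8 rows, against 29.2% of all tested rows. The log2 differences ran from 1.23 for Gbp7 (limma adjusted p = 0.000557) to 2.96 for the Tgtp row (limma adjusted p = 5.54e-06). The median was 1.65, against 0.02 over all tested rows. This comparison uses the same libraries as the comparisons above and adds no further samples.

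Other genes of the IRG and GBP families, from a list of 18 symbols, had 7 tested rows. Of these, 6 rose in KO over WT, 0 fell and 1 was not called, with a median log2 difference of 1.09. The counts of this and the following lists stand beside 29.5% of all tested rows called higher, 28.2% called lower and a median of 0.02. Gbp5, known for its part in the assembly of inflammasomes, was at 7.31 and 6.46 FPKM in KO and 0.466 and 1.04 FPKM in WT, and at 6.84 FPKM in MUT and 0.389 FPKM in HET (KO over WT log2 2.19, limma adjusted p = 1.40e-06). The shared row of Gbp4, Gbp6 and Gbp9 was at 37.4 and 32.5 FPKM in KO and 12.9 and 16.0 FPKM in WT (log2 1.22, limma adjusted p = 1.33e-05). Gvin1, a gene of the very large interferon-inducible GTPases, had a log2 difference of 1.60 at under 3 FPKM in every library. The row not called, with a log2 difference of -0.00 (limma adjusted p = 0.974), joins Gm12250, an IRG gene, with Mrpl22, which encodes a mitochondrial ribosomal protein, so its level is not that of an IRG gene alone. In the row of F830016B08Rik and Gm4951, the KO effect minus the MUT effect was -1.05 (limma adjusted p = 0.0195).

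Transcripts of the interferons themselves were scarce. Of 18 interferon genes, 14 were listed at 0 in every library, and Ifnb1, which encodes interferon-beta, was the 1 that reached the tested set. Ifnb1 was at 2.91 and 1.29 FPKM in KO and 0.102 and 0.347 FPKM in WT, at 1.56 FPKM in MUT, and listed at 0 in HET. Its log2 difference of KO over WT was 1.30 (SE 0.22, limma adjusted p = 0.000620). Ifng, which encodes interferon-gamma, was listed at 0 in every library except WT 1, where it was at 0.0629 FPKM.

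Among interferon receptors and their kinases, 6 of 8 tested rows rose in KO over WT and 0 fell, with a median log2 difference of 0.31. The largest were Il10rb, a receptor chain for IL-10 and interferon-lambda, at 0.86, Jak2, the kinase of the interferon-gamma receptor, at 0.64, and Ifngr2, a chain of that receptor, at 0.39. Ifngr1, its other chain, was at 17.8 and 16.1 FPKM in KO and 13.4 and 13.2 FPKM in WT (log2 0.33, limma adjusted p = 0.0179). Ifnar1, a chain of the type I receptor, was not called, with 11.1 and 11.2 FPKM in KO and 12.1 and 12.2 FPKM in WT (log2 -0.11, limma adjusted p = 0.354).

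Of the transcription factors of the interferon response, 8 of 10 tested rows rose in KO over WT and 0 fell, with a median log2 difference of 0.84. Stat2, which acts in type I interferon signalling, was at 79.3 and 76.1 FPKM in KO and 35.4 and 39.3 FPKM in WT (log2 1.04, limma adjusted p = 8.92e-06). The row of Irf9, which also names Rnf31, rose by a log2 of 0.60 (limma adjusted p = 0.000748). Irf1, the ISRE-binding factor induced by interferon-gamma, was at 46.3 and 42.0 FPKM in KO and 17.0 and 18.2 FPKM in WT (log2 1.28, limma adjusted p = 2.33e-06). Irf7, which amplifies type I interferon production, rose by a log2 of 1.18 (limma adjusted p = 4.90e-06). The gap between the KO effect and the MUT effect was called for 4 of these 10 rows, against 4.01% of all tested rows and 0 rows with no filter on low values, among them Stat2 at -0.75, Irf7 at -0.88 and Nlrc5, the activator of MHC class I genes, at -1.02 (limma adjusted p = 0.0125 for Nlrc5 to 0.0377 for Stat2).

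The brakes on interferon signalling did not move as a block. Of 9 tested rows, 3 rose in KO over WT, 1 fell and 5 were not called. Usp18, which blocks the type I receptor and removes ISG15 from proteins, was at 185 and 196 FPKM in KO and 43.7 and 51.8 FPKM in WT, and at 161 FPKM in MUT and 26.3 FPKM in HET (log2 1.98, limma adjusted p = 1.79e-07). Socs1, which inhibits the Janus kinases, was at 9.82 and 9.20 FPKM in KO and 9.28 and 11.8 FPKM in WT and was not called (log2 -0.12, limma adjusted p = 0.408). Ptpn2, a phosphatase that restrains Janus kinase signalling, rose by a log2 of 0.45. Ptpn6, a phosphatase best known from blood cells, fell by 1.46 on the log2 scale.

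Of 17 genes for ATG8 conjugation and ubiquitin tagging, the machinery that directs these GTPases to vacuoles, 14 rose in KO over WT, 0 fell and 3 were not called, against 29.5% of all tested rows called higher and 28.2% lower, with a median log2 difference of 0.49. Sqstm1, which encodes the cargo receptor p62, was at 1123 and 1120 FPKM in KO and 249 and 221 FPKM in WT, and at 664 FPKM in MUT and 168 FPKM in HET (log2 2.25, limma adjusted p = 5.75e-08). Atg16l2, a relative of the conjugation factor Atg16l1, rose by a log2 of 0.98. Trim21, a ubiquitin ligase that binds antibodies inside cells, rose by 0.97. Of the inflammasome partners of GBPs, 2 of 5 tested rows rose and 2 fell. Casp4, the caspase that senses bacterial lipopolysaccharide, was at 24.3 and 24.8 FPKM in KO and 5.65 and 6.26 FPKM in WT (log2 1.88, limma adjusted p = 1.68e-07). Gsdmd, its pore-forming substrate, rose by a log2 of 0.98, and Aim2, a sensor of DNA, fell by 1.56.

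The nearest tested rows on either side of the members, outside these lists, made 8 distinct neighbours. Of these, 4 were called higher in KO over WT and 0 lower, against 29.5% and 28.2% of all tested rows, with a median log2 difference of 0.28. At least 2-fold higher in MUT over HET were 2 of the 8, against 4.93% of all tested rows. Trim7, beside Irgm1, had a log2 difference of 0.07 (limma adjusted p = 0.562), and Ccbl2, beyond the GBP genes, had 0.04 (limma adjusted p = 0.821). Pdlim5, on the other side of the GBP genes, rose by 1.16 (limma adjusted p = 1.17e-05). Gm4841, the neighbour of Iigp1, rose by 1.21 at under 6 FPKM in every library, with 2.15 in MUT over HET. Family genes were kept out of the neighbours only by the listed symbols. Gm4841 is not on the lists but may itself be a family gene, so the counts of neighbours may include a family gene.

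Markers of cell state moved with the same contrast. Of 8 fibroblast markers, 6 were lower in KO than in WT and 0 higher, and the summed level was 2730 to 2792 FPKM in KO and 5573 to 6083 FPKM in WT, with 3682 FPKM in MUT and 5413 FPKM in HET. All 8 markers of pluripotent cells were lower in KO, with summed levels of 8.72 to 22.8 FPKM in KO and 519 to 635 FPKM in WT, 44.8 FPKM in MUT and 669 FPKM in HET. The part of these shifts in the levels of the GTPases was not tested. Markers of lymphocytes, which can express these GTPases, were at or near 0. Of 10 rows for T, NK and B lymphocytes, 10 were under 1 FPKM in every library and 5, among them Cd3g, Cd8a and Ms4a1, were listed at 0 throughout. Of 10 macrophage rows, 6 were tested, of which 0 were called higher in KO, 2 lower and 4 not called. Laptm5 changed most, with 3.31 and 2.83 FPKM in KO and 23.4 and 19.9 FPKM in WT (log2 -2.47, limma adjusted p = 7.46e-08). It was at 5.88 FPKM in MUT and 36.7 FPKM in HET. The row of Lyz1 and Lyz2, at 5.59 and 7.24 FPKM in KO and 8.46 and 6.46 FPKM in WT, was not called (limma adjusted p = 0.294). Ptprc, the common leukocyte antigen, was at 0.0451 and 0.0241 FPKM in KO and 0.0610 and 0.0483 FPKM in WT. Csf1r, the receptor for macrophage growth factor, was at 0.491 and 0.501 FPKM in KO and 0.276 and 0.371 FPKM in WT and was not tested. Cd14 averaged 1.28 FPKM in KO and 0.912 FPKM in WT (limma adjusted p = 0.116), and Tyrobp 1.74 FPKM in KO and 1.17 FPKM in WT (limma adjusted p = 0.0796). The summed level of the 10 rows was 560 to 574 FPKM in KO and 781 to 794 FPKM in WT, with 581 FPKM in MUT and 934 FPKM in HET, most of it on a row that Cd68 shares with Eif4a1 and Senp3. Of 4 tested endothelial rows, 1 was higher in KO and 3 lower, with summed levels of 5.46 to 5.65 FPKM in KO, 5.95 to 6.13 FPKM in WT, 4.93 FPKM in MUT and 7.74 FPKM in HET.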

How the data were processed

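Ribosomal RNA was removed from total RNA before sequencing, per the labels' protocols. Per the file headers, the values the authors deposited are FPKM for each gene row; they are written with decimal commas. The submitters' processing notes name Cufflinks 2.2.1, TopHat2 2.1.1 and Bowtie2 2.3.0, and the builds GRCm38 and mm10. Whether strand or a further scaling was used, and which annotation, is not given in the sources used here. FPKM are not counts, so no count test was run.

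Of 24879 rows, 1021 had no gene name, held 8.26% to 14.2% of the FPKM of a library and were left out. Where a symbol had several rows, the one with the highest mean was kept. A pseudocount of 1 was added before taking log2, and limma 3.58.1 was run in R 4.3.3 (trend, two-sided, Benjamini-Hochberg over 12266 rows with at least 1 FPKM in at least 2 of 6 libraries). This scale understates changes of low rows. Nothing in the labels says that replicates were separate cultures, so p-values measure a spread that may be technical. Every member is named, and of each other list the 3 rows with the largest absolute log2 difference of KO over WT plus 11 genes set by name, not all of which are reported here; further list genes (Nlrc5, the row of F830016B08Rik and Gm4951, the row of Gm12250, and single markers) and the neighbours mentioned were chosen after their values were seen. The members and lists were chosen with earlier results of these data known. The intervals given for rows are those of the deposited table, and promoter positions are from RefSeq. Gene strands come from GENCODE M21 and 50-base words from its transcripts. Alternatives were other pseudocounts, filters and scalings, a replicate block and single libraries left out.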

Additional observations from a re-analysis of the deposited data

Results flagged for a closer look

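The 4OHT effect differed between the allele backgrounds for 2 of the 8 rows by limma's test of the difference itself, with MUT and HET at 1 library each. For Iigp1 the KO effect minus the MUT effect was -1.25 on the log2 scale, from 0.86 in KO over WT and 2.11 in MUT over HET. For the row of Ifi47 and Olfr56 it was -0.94, from 1.25 and 2.19. The gap also equals the HET over WT difference minus the MUT over KO difference. These were -0.78 and 0.48 for Iigp1, and -0.64 and 0.30 for the Ifi47 row. In both rows the larger part came from the single HET library lying below WT. Neither row was called with no filter on low values. Without WT 2, which held the higher WT value in all 8 rows, the gap shrank to -0.99 for Iigp1 and -0.83 for the Ifi47 row.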

How the results depend on the processing

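The call of all 8 rows in KO over WT held in 12 of 13 alternatives; with no filter on low values 7 were called, without Iigp1. The 8 calls of 4OHT over vehicle held in all 14 alternatives, as did the 8 rows at 2-fold or more in MUT over HET in all 4. Of these 14, the fits without HET and without MUT return the KO over WT difference, at 1.45 for Irgm1 in both. They repeat that comparison and do not test the pooled one further. The gap between the KO effect and the MUT effect was less settled, with 2 rows called. Its test called 0 with no filter on low values (limma adjusted p = 0.283 for Iigp1 and 0.205 for Ifi47). It called 4 among rows with a mean of at least 5 FPKM, 3 after median-of-ratios scaling between libraries and 4 after quantile normalization. Leaving out 1 library at a time leaves 1 in its group. The gap then ran from -1.52 to -0.99 for Iigp1 and from -1.05 to -0.83 for Ifi47. With the replicate number as a block the test called 7. The labels do not say that the numbers pair samples. Across all tested rows, the difference between the replicates of KO correlated with that between the replicates of WT at 0.183. That value rests on 1 difference in each group. Over all rows tested in each setting, the calls of this difference were 492, against 0 with no filter and 1191 with the block. They were 441 among rows with a mean of at least 5 FPKM, 556 after median-of-ratios scaling and 657 after quantile normalization. The cause of these changes was not tested. No member's difference reversed among the 104 values of KO over WT, 96 of the gap, 112 of 4OHT over vehicle and 32 of MUT over HET. Settings that change only the filter, the trend or the block leave a log2 difference as it is, so they could not reverse it. MUT lay below both KO libraries in 0 rows, and leaving out 1 library gave 0 to 1 (Irgm1, without KO 2). Summing several rows of a symbol was not run, since each member is on 1 row, and HET and MUT could not be left out of the difference. MUT and HET have 1 library each, so their own spread is unknown.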
